A study of Mus musculus with 20 samples.

Results

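Of the 10 pluripotent mouse lines of the study, 8 lines, with 16 of the 20 arrays, lay at the 2 ends of the main axis of variation in gene expression and are described here against each other. At end A were KH2_OSKM (graded poor), BC_2 OSKM (good), Oct4-GFP SNEL#1 (high) and Nanog-GFP ESCs, and at end B were Nanog-GFP SNEL#3 (good), Nanog-GFP SNEL#2 (high), KH2 ESCs and Oct4-GFP ESCs. The lines were chosen by their measured values, as the ends of the first principal component of all genes, so that every gene level below had a part in choosing them. Differences between the ends are therefore given as a description with no test. A test is given only for the signal of spike-in control spots, which did not enter the component.

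Gene expression had been read on 1-colour Agilent arrays, 2 for each line, in 3 lines of embryonic stem cells (ESCs) and 7 lines of induced pluripotent stem cells (iPSCs). OSKM in a name stands for reprogramming with Oct4, Sox2, Klf4 and Myc. SNEL stands for Sall4, Nanog, Esrrb and Lin28. The labels grade each iPSC line as poor, good or high in quality. All lines grew untreated in 2i medium with no feeder cells, a medium with inhibitors of the kinases MEK and GSK3. The names KH2, BC_2, Nanog-GFP and Oct4-GFP are those of the labels, which give no strain, sex or age, do not say how many clones a line holds and leave unsaid whether both arrays of a line share a culture. The 2 arrays of a line were therefore averaged, and the line is the unit. The 2 lines at neither end, Oct4-GFP OSKM#2 and Nanog-GFP OSKM#2, are both graded poor and are given for comparison.

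Mouse pluripotent cells in 2i medium are held close to the naive state of the early embryo, in which ERK signalling is blocked and GSK3 inhibition stabilises the Wnt effector beta-catenin. A small and changing share of cells enters a state that resembles the embryo just after its first division, marked by Zscan4 genes. Genes of the germ line are held silent by DNA methylation at their promoters in most other cells, and genes that answer to low oxygen are driven by the factor HIF1.

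The first component held 36.8% of the variance between the 10 line means, against 14.7% for the second and 13.3% for the third. Scores are in root mean square log2 units per gene. They were 0.426 in KH2_OSKM, 0.441 in BC_2 OSKM, 0.364 in Oct4-GFP SNEL#1 and 0.191 in Nanog-GFP ESCs, against -0.496 in Nanog-GFP SNEL#3, -0.337 in Nanog-GFP SNEL#2, -0.333 in KH2 ESCs and -0.242 in Oct4-GFP ESCs. Between them lay Oct4-GFP OSKM#2 at 0.037 and Nanog-GFP OSKM#2 at -0.052. The line nearest the middle at end A was an ESC line, and so was the line nearest the middle at end B. In a component computed over single arrays, both arrays of each line fell on the side of their line mean. The axis depended on the filter on dim probes, since without it only 4 of the 8 lines lay beyond both middle lines on the first component, and all 8 did so on the second.

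**Figure D1:**
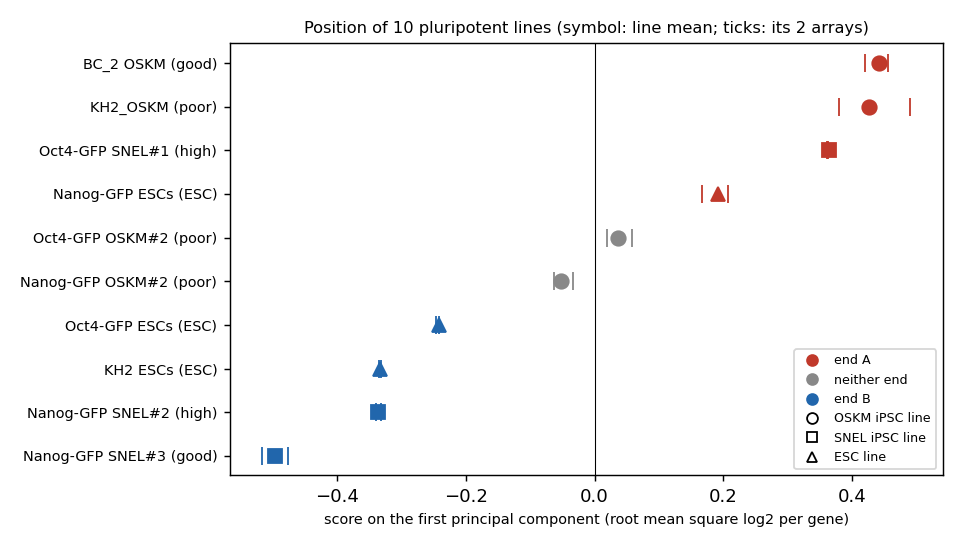
Score of each of the 10 lines on the first principal component (horizontal axis, root mean square log2 per gene), with the line mean as a symbol and its 2 arrays as ticks, taken from a component over arrays. Each end holds an ESC line, and SNEL lines sit at both ends, at 0.364 and at -0.496 and -0.337.

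The axis crossed grade, factors and origin. Each end held lines of the KH2, Oct4-GFP and Nanog-GFP names, so that lines of one name lay apart. KH2_OSKM differed from KH2 ESCs by a root mean square of 0.951 on the log2 scale, and Oct4-GFP SNEL#1 differed from Oct4-GFP ESCs by 0.873. Nanog-GFP ESCs differed from Nanog-GFP SNEL#2 by 0.790 and from Nanog-GFP SNEL#3 by 0.882, but from BC_2 OSKM, a line of another name, by 0.641. The median distance was 0.678 over the 6 pairs of lines within end A, 0.666 over the 6 pairs within end B and 0.919 over the 16 pairs between them. The ends were chosen on these same line means, so that larger distances between them follow from the choice and are no support for it.

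Spike-in control spots did not enter the component. Their median log2 signal was 10.97 ± 0.08 (SD, n = 4 lines) at end A and 10.94 ± 0.15 (n = 4) at end B (exact two-sided permutation test over 70 splits, p = 0.714, adjusted p = 0.714 over 4 technical measures). The smallest p that 4 lines against 4 allow is 0.0286. The other 3 measures are part of the values that chose the lines, or computed from them, and the p of their tests is not given. Local background was 18.1 ± 0.61 against 17.7 ± 0.48, the signal at the 75th percentile was 791 ± 69.8 against 681 ± 92.7, and the 2 arrays of a line lay 0.697 ± 0.155 apart at end A and 0.615 ± 0.094 at end B. The share of probes well above background was 63.2% ± 3.97 against 59.0% ± 6.90 (n = 4 each, not tested) and ran from 48.9% to 77.2% over the arrays of the study. The array with 77.2% was one of KH2_OSKM, whose other array had 58.3%, and its part in genes high at end A was not tested beyond the counts without it, which were 1205 genes higher and 563 lower.

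Levels below are log2 signals with the 75th percentile of the array at 0, each line being the mean of its 2 arrays. They are listed in a fixed order, at end A as KH2_OSKM, BC_2 OSKM, Oct4-GFP SNEL#1 and Nanog-GFP ESCs, and at end B as Nanog-GFP SNEL#3, Nanog-GFP SNEL#2, KH2 ESCs and Oct4-GFP ESCs. Means carry the SD over the 4 lines of an end. A gene was counted where all 8 arrays of one end lay above all 8 of the other and the means of the lines differed by at least 1 on the log2 scale. Of 27161 genes, 1212 were counted higher at end A (4.46%) and 484 lower (1.78%). Because these genes shaped the axis, nothing is read from the 2 shares, and the counts of gene lists are set beside them only as a background. Without the demand for a difference of 1, 6.68% of genes were apart and higher at end A and 8.75% apart and lower. Of the 1212 genes, 73 were not well above background on any array of end B. Of the 484, 6 were not so on any array of end A. The size of such differences depends on the background. Within slides 1, 2 and 3, each of which held lines of both ends, 2155, 1761 and 1725 genes were counted higher and 929, 1062 and 879 lower, over fewer arrays each. The median difference over all genes was -0.06.

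Of the 1212 genes counted higher, 698 were well above background on all 16 arrays, 457 differed by at least 2 and 123 by at least 3 on the log2 scale. Of the 484 counted lower, 382 were well above background on all 16 arrays, 76 differed by at least 2 and 13 by at least 3. On both counts the 2 lines at neither end lay between the ends. On a scale with the mean of end B at 0 and that of end A at 1, the median position of the 1212 genes was 0.499 in Oct4-GFP OSKM#2 and 0.383 in Nanog-GFP OSKM#2. For the 484 genes it was 0.215 and 0.261. At the threshold itself, Nfyc (difference -1.0011) and Gm14873 (-1.0026) were the last genes counted, and Acp2 (-0.9994) and 9030025P20Rik (-0.9989) the first left out.

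The genes with the largest differences were of mixed kinds. Krt20, a keratin of gut epithelium, stood at -1.08, -0.29, -1.22 and -1.56 at end A and at -6.17, -6.98, -6.12 and -6.70 at end B, where it was not well above background on any array, so that it was at least 19.9-fold higher at end A. Such bounds set the mean of the brighter end against the lowest signal that counted as well above background, and they hold for the scanner's background subtraction. After normexp background correction the differences of Krt20 and Ldc1 were 2.41 and 1.73 on the log2 scale, which is smaller than their bounds. Adgra2, an adhesion receptor, had 0.22, -0.22, 0.77 and 0.42 against -5.88, -4.43, -3.11 and -3.74, which is 24.01-fold. Ldc1 was at least 10.06-fold higher, and Stab2, Fhad1, Meltf and Alox12b were between 17.2-fold and 17.8-fold higher, although the 2 probes of Alox12b differed in direction. No array of one end reached the other in any of them.

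Among the leading genes lower at end A, Nt5e, which encodes the cell surface enzyme CD73, had -6.31, -6.37, -5.46 and -5.31 against -0.78, -1.997, -0.83 and -1.09. It was well above background on 3 of 8 arrays of end A, so that its difference of -4.69 on the log2 scale rests mostly on levels near background, and it was -2.43 after normexp correction. Trh, the precursor of thyrotropin-releasing hormone, had 3.45, 2.67, 2.51 and 3.81 at end A and 8.26, 7.38, 6.85 and 6.503 at end B, a 17.6-fold difference. Gja1, the gap junction protein connexin 43, was 9.19-fold lower at end A (-4.02 ± 0.74 against -0.82 ± 0.29). Gbp4, Casq2, Soga3 and Btla were also lower, Btla by at least 3.80-fold since no array of end A was above background. Some leading genes owed their difference to part of end A. Gc, the vitamin D binding protein, was -7.73 in BC_2 OSKM and -7.15 in Oct4-GFP SNEL#1 but -1.72 and -1.31 in the other lines of that end, against -0.75 to 0.07 at end B, and it was low in Oct4-GFP OSKM#2 (-8.14) and high in Nanog-GFP OSKM#2 (1.54). Pnp2, a purine nucleoside phosphorylase, was -5.96 in Oct4-GFP SNEL#1 and -1.62 to -0.63 in the other lines of end A.

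Genes that answer to low oxygen had one of the highest medians among the lists. Of 20 measured, 11 were counted higher at end A and 0 lower, beside 4.46% and 1.78% of all genes, and the median difference was 1.45. Adm, a vasodilator peptide, stood at 0.84, 0.87, 2.06 and 1.49 against -3.42, -1.86, -0.55 and 0.29. P4ha1, a collagen prolyl hydroxylase subunit, had 1.88, 1.62, 0.55 and 0.66 against -1.94, -1.54, -1.59 and -0.99, and its relative P4ha2 had 2.81, 2.22, 2.95 and 2.36 against 0.14, 0.69, 0.33 and 0.83. The ends did not overlap in any of these, and Oct4-GFP ESCs was the line of end B nearest to end A in each of the 3. Ndrg1, a stress-response gene, was 5.85 ± 0.34 against 3.44 ± 0.71, which is 5.30-fold. Vegfa, Egln3, Bnip3, Ero1a, Car9 and Plod2 were also counted, with differences of 1.43 to 1.94, while Pdk1 (-0.36) and Kdm3a (-0.05) were not higher at end A. The score of the list, the mean difference of its genes from the average of the 10 lines, was 0.60 to 0.92 at end A and -1.15 to -0.14 at end B, lowest in Nanog-GFP SNEL#3. Within slides 1, 2 and 3 the median difference of the list was 1.76, 1.498 and 1.02.

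**Figure D2:**
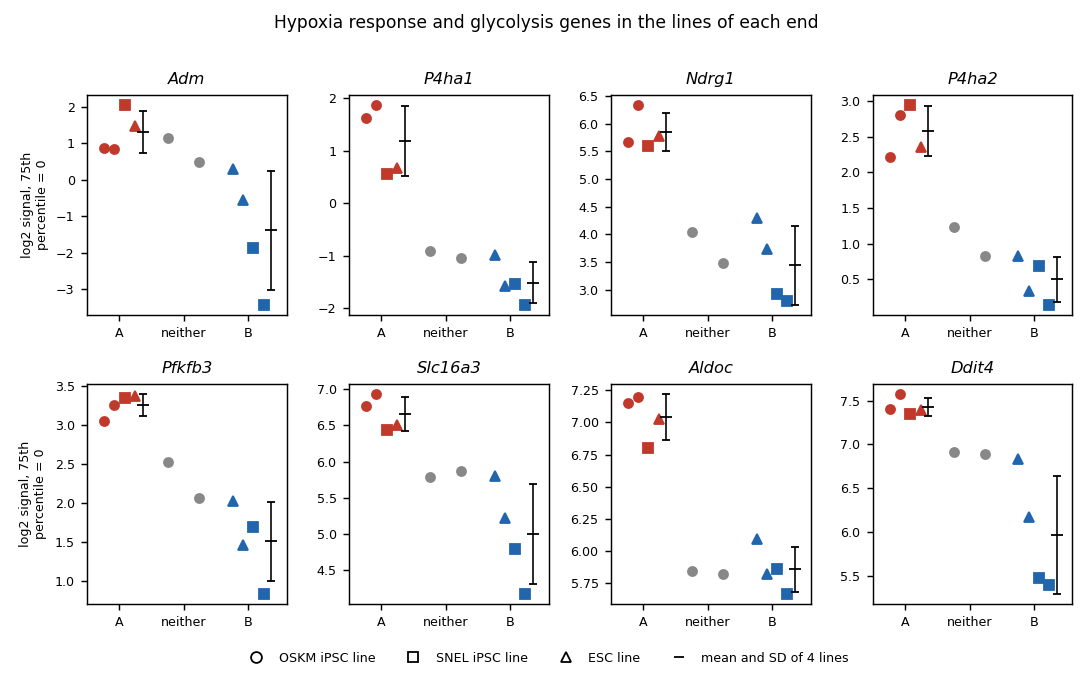
Log2 signals (vertical axes, 75th percentile of the array at 0) of 8 genes of the hypoxia response and glycolysis in the 4 lines of end A, the 2 lines at neither end and the 4 lines of end B, with the mean and SD of the 4 lines beside them. In each gene the points of end A lie above those of end B, and Ddit4 reaches 7.34 to 7.58 at end A.

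Fewer genes of glycolysis were counted. Of 23 measured, 3 were counted higher at end A (13.0%) and 0 lower, beside 4.46% and 1.78% of all genes. Without the demand for a difference of 1, 10 of the 23 genes were apart and higher and 1 apart and lower, beside 6.68% and 8.75% of all genes. The median difference was 0.39. Aldoc, an aldolase, had 7.20, 7.15, 6.80 and 7.03 against 5.66, 5.85, 5.82 and 6.09. Pfkfb3, which makes the activator of phosphofructokinase, was 3.26 ± 0.14 against 1.51 ± 0.50, and Slc16a3, the lactate exporter, 6.66 ± 0.24 against 4.998 ± 0.69. The differences of the abundant enzymes Gapdh (0.04), Eno1 (0.04), Aldoa (0.10) and Pgam1 (0.13) were small. Of 82 genes of oxidative phosphorylation, 2 were counted higher at end A, Cox8b and Cox8c (2.44%, beside 4.46% of all genes), and 0 lower. Without the demand for a difference of 1, 15 of the 82 genes were apart and lower, beside 8.75% of all genes, and the list's median was -0.17. Ddit4, an inhibitor of mTORC1 that low oxygen and other stresses induce, had 7.58, 7.41, 7.34 and 7.39 against 5.39, 5.47, 6.18 and 6.83. Of 26 genes of the ATF4 stress response 4 were counted higher, among them Ddit3 (2.57 ± 0.30 against 0.76 ± 0.55), and 1 lower, the amino acid transporter Slc7a3 (4.18 ± 0.38 against 5.69 ± 0.28). That is 15.4% and 3.85% of the list, beside 4.46% and 1.78% of all genes. Without KH2_OSKM 2 genes of the ATF4 list were counted higher.

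The 250 bases before the start site of 4 genes counted higher are shown because they carry the motif known for the factors of their list, which is in capitals. For P4ha1 and P4ha2 this is ACGTG, the core of the HIF1 site, read on either strand. For Mael and Stk31, 2 germline genes, it is the palindrome CACGTG, the site of MGA and other E-box factors, in which ACGTG lies. Sequences are from RefSeq on GRCm38.p6, in the direction of the gene.
P4ha1 (chr10:59323046-59323295, plus strand): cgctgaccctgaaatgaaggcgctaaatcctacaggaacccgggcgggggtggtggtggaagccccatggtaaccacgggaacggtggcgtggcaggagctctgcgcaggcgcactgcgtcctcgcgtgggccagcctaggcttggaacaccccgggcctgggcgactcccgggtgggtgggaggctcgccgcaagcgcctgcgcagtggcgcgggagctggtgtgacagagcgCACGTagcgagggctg
P4ha2 (chr11:54100674-54100923, plus strand): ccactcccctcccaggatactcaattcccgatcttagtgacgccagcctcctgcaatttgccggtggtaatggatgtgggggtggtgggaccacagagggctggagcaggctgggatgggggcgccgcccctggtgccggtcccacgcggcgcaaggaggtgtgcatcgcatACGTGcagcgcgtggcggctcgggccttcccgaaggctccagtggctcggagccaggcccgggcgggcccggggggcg
Mael (chr1:166238745-166238994, minus strand): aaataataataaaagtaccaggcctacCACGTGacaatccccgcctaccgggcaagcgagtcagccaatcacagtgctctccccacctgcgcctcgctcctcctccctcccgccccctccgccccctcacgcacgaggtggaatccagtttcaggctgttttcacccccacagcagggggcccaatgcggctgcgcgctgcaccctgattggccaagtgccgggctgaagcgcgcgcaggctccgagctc
Stk31 (chr6:49395289-49395538, plus strand): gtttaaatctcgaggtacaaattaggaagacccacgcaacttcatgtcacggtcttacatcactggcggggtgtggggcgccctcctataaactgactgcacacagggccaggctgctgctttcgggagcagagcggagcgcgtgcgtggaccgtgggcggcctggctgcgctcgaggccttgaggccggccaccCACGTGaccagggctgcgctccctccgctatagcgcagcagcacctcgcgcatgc

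A promoter was at hand for 18 of the 20 hypoxia genes and 29 of the 32 germline genes. ACGTG on either strand lay in 10 of 18 hypoxia promoters (55.6%) and in 19 of 29 germline promoters (65.5%), beside 20.1% of the 13445 promoters at hand among all genes measured. CACGTG lay in 12 of 29 germline promoters (41.4%) and 1 of 18 hypoxia promoters, beside 7.79%. Only 49.5% of all genes measured, 66.8% of those counted higher and 42.4% of those counted lower had a promoter, so that a check of motifs or CpG content over the counted genes is void. A promoter was at hand for 90% of the hypoxia list and 90.6% of the germline list. The shares of all promoters are thus an unlike background, and nothing is read from the contrast. The median GC content was 65.4% in hypoxia promoters, 58.4% in germline promoters and 58.4% in all promoters at hand. A match is a run of letters and not a shown binding site.

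Germline genes that DNA methylation is known to silence were higher at end A than at end B in nearly every case. Of 32 measured, 14 were counted higher and 0 lower, beside 4.46% and 1.78% of all genes, 31 had the higher mean at end A, and the median difference was 1.40. Smc1b, a cohesin subunit of meiosis, had 1.11, 1.98, 2.73 and 2.00 against -0.48, -0.48, -2.07 and -0.06. Dazl, an RNA-binding protein of germ cells, had 0.13, 0.60, 0.71 and -0.37 against -2.92, -2.18, -2.02 and -1.26. Sohlh2, a transcription factor of early germ cells, had 2.00, 2.43, 2.20 and 1.37 against -0.44, 0.14, -0.78 and -0.13. In Sohlh2 the 2 lines at neither end, at 1.61 and 2.21, lay among those of end A, and in Dazl they did too, at -0.13 and 0.26. So did their scores of the list, 0.56 in Nanog-GFP OSKM#2 and 0.48 in Oct4-GFP OSKM#2. The score was 0.31 to 1.00 at end A and -1.12 to -0.56 at end B, so that high levels were not particular to end A. Mael (2.17), Stk31 (1.496), Sycp3 (1.43) and Piwil2 (1.31) were counted as well, these being differences on the log2 scale. Of the 32 genes, 3 were not well above background on any array of end B. Within slides 1, 2 and 3 the median difference of the list was 1.53, 1.203 and 1.63. It was 0.93 after normexp background correction, and over all alternatives 10 to 21 members were counted higher. Stra8 and Aurkc, leading genes outside the list, also act in germ cells. Stra8, the switch into meiosis, stood at 4.35, 3.97, 5.34 and 4.58 against -2.11, 1.51, 1.09 and 1.37, and Aurkc, a kinase of meiosis, at 4.37, 5.33, 5.12 and 5.0004 against -1.23, 0.96, 1.07 and 2.62.

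Of 25 genes that set, keep or remove DNA methylation, 1 was counted higher and 1 lower, which is 4% in each direction beside 4.46% and 1.78% of all genes. Dnmt3b, which sets new methylation, had 2.69, 2.20, 3.27 and 3.51 at end A against 5.43, 4.66, 5.44 and 4.49, a 4.25-fold lower level, and it was at 5.18 and 5.86 in the 2 lines at neither end, as high as at end B. Gadd45b had 4.88, 4.93, 4.60 and 4.63 against 0.84, 2.04, 2.51 and 3.03, a 6.31-fold higher level at end A. Dnmt1 (-0.12), Uhrf1 (-0.14), Dnmt3l (-0.14) and Dnmt3a (0.53) were not counted, and the array does not read methylation itself.

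Genes of the 2-cell-like state varied widely within end A, where the score of the list ran from -0.18 to 1.91. Of 24 measured, 8 were counted higher (33.3%) and 0 lower, beside 4.46% and 1.78% of all genes. The median difference was 0.79, or 0.49 without Oct4-GFP SNEL#1. Zscan4f had -0.94, 1.24, 4.33 and 0.61 at end A against -5.22, -2.35, -4.06 and -3.13, and Zscan4e had -0.94, 1.27, 4.23 and 0.50 against -6.41, -2.22, -4.07 and -3.18. The near-identical copies of Zscan4 can share signal on a probe. Oct4-GFP SNEL#1 was the highest line of end A in both, and Oct4-GFP OSKM#2 (3.64 in Zscan4f) and Nanog-GFP OSKM#2 (2.29) were above the other 3 lines of end A although they lie at neither end of the axis. Tmem92 was not above background on any array of end B and was at least 17.3-fold higher at end A, although its difference was 2.27 on the log2 scale after normexp correction. Fewer cells in this state and less RNA per cell cannot be told apart in bulk RNA. Of the 24 genes, 4 were well above background on all 8 arrays of end B, and 6 were so on none of them and passed the filter on dim probes through other arrays. The list's median was 0.08 after normexp background correction, and -0.42, with 0 members counted higher, among probes above background on all 20 arrays.

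Prame-like genes, a family active in germ cells and the early embryo, were also highest in Oct4-GFP SNEL#1. Of 17 measured, 6 were counted higher (35.3%) and 0 lower, beside 4.46% and 1.78% of all genes. Of the 17 genes, 6 were not well above background on any array of end B and passed the filter on dim probes through other arrays. Nothing is read from the share for this reason too. The list's median was 1.53, or 2.32 without Nanog-GFP ESCs. With probes above background on all 20 arrays 1 was counted and the median was 0.25, and after normexp correction the median was 0.49. Pramel31 had -2.69, -1.50, 1.12 and -2.61 against -6.36, -5.71, -7.58 and -6.35 and was at least 15.4-fold higher, and Pramel16 at least 13.3-fold, although the differences were 2.29 and 2.22 on the log2 scale after normexp correction. The list's score was 1.94 in Oct4-GFP SNEL#1, 1.65 in Oct4-GFP OSKM#2 and 1.06 in Nanog-GFP OSKM#2, against 0.64, 0.30 and -0.34 in BC_2 OSKM, KH2_OSKM and Nanog-GFP ESCs and -1.59 to -1.17 at end B. The median difference between Oct4-GFP SNEL#1 and Oct4-GFP ESCs was 3.20, and that between Nanog-GFP ESCs and the SNEL lines of that name 0.25. Copies of these genes can share signal on a probe.

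**Figure D3:**
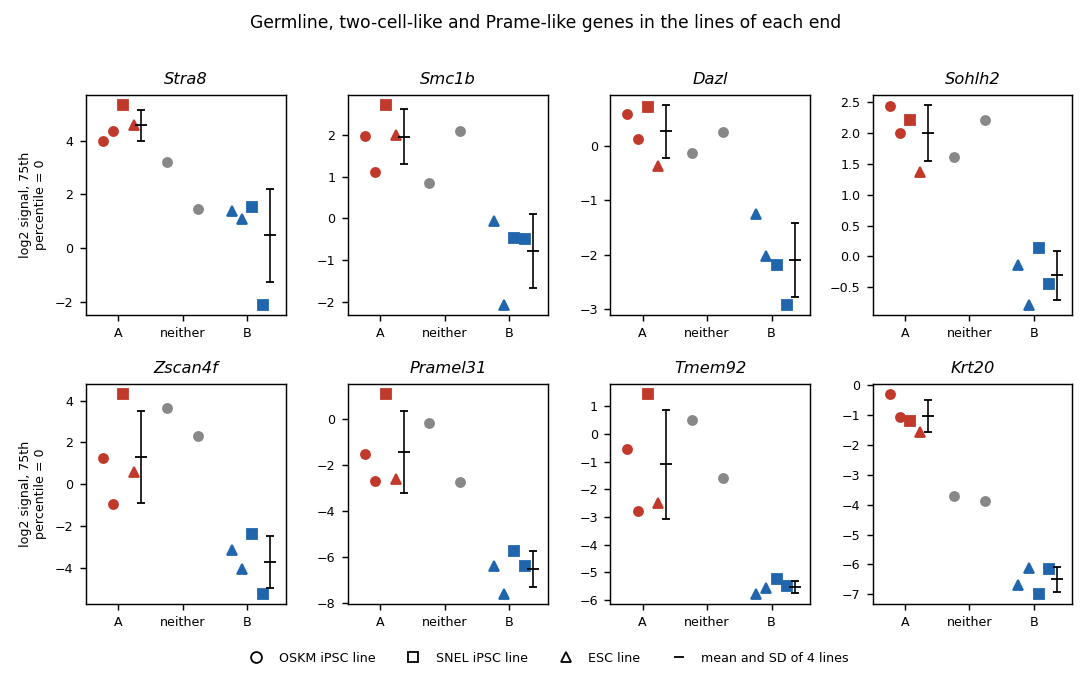
Log2 signals (vertical axes, 75th percentile of the array at 0) of 8 germline, 2-cell-like and other genes higher at end A, with the mean and SD of the 4 lines of each end. Dazl and Sohlh2 are close together within end A, whereas Zscan4f runs from -0.94 to 4.33 there and the 2 lines at neither end reach 3.64 and 2.29.

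Genes of the major histocompatibility complex (MHC), which present peptides to T cells, had 9 of 19 measured counted higher at end A (47.4%) and 0 lower. The shares of all genes were 4.46% and 1.78%. Members of both classes were among the 9, and the median was 1.61. The mean was lower at end A in 3, and 1 of these was apart, Pfdn6, a prefoldin subunit that the list holds under an older H2 name. H2-Ab1, a class II chain, had 2.18, 2.64, 2.05 and 1.53 against -3.24, -1.66, -1.14 and -0.40, which is 13.1-fold. Cd74, the class II invariant chain, had -0.73, -0.44, -1.08 and -2.09 against -3.75, -2.98, -2.74 and -2.89. H2-K1, a classical class I chain, was higher by 1.74, H2-Q7 by 1.72 and H2-T23 by 1.63 on the log2 scale. Among 11 antigen presentation genes 3 were counted, the peptide transporter subunits Tap1 (-2.74 ± 0.13 against -5.02 ± 0.75) and Tap2 (-0.26 ± 0.31 against -2.87 ± 0.42) and the proteasome subunit Psmb9 (0.50 ± 0.48 against -1.89 ± 0.15). B2m (0.95) and the regulator Nlrc5 (-0.05) were not counted. Of 104 genes measured in the span chr17:34111920-35580374 (mm9), which holds most of these, 19 were counted higher, and the median difference of all 104 was -0.0027.

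Of 29 interferon response genes measured, 3 were counted higher (10.3%) and 1 lower (3.45%), beside 4.46% and 1.78% of all genes. The median was 0.17, and 0.10 without KH2_OSKM and 0.26 without BC_2 OSKM or Nanog-GFP ESCs, and 2 of the 3 were Psmb9 and Tap1. Ddx58, the RNA sensor RIG-I, went the other way, with 1.58, 1.47, 1.28 and 1.60 at end A and 4.25, 3.33, 3.93 and 3.22 at end B. Ifih1, the sensor MDA5, was at least 1.25-fold higher at end A and was above background on 5 of 8 arrays there and 0 at end B. Of 13 genes of blood and immune cells 1 was counted higher (7.69%, beside 4.46% of all genes), Cd68 (-0.29 ± 0.35 against -1.76 ± 0.29). The list's median was 0.08, or 0.01 without Nanog-GFP SNEL#3 and 0.15 without Nanog-GFP SNEL#2.

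**Figure D4:**
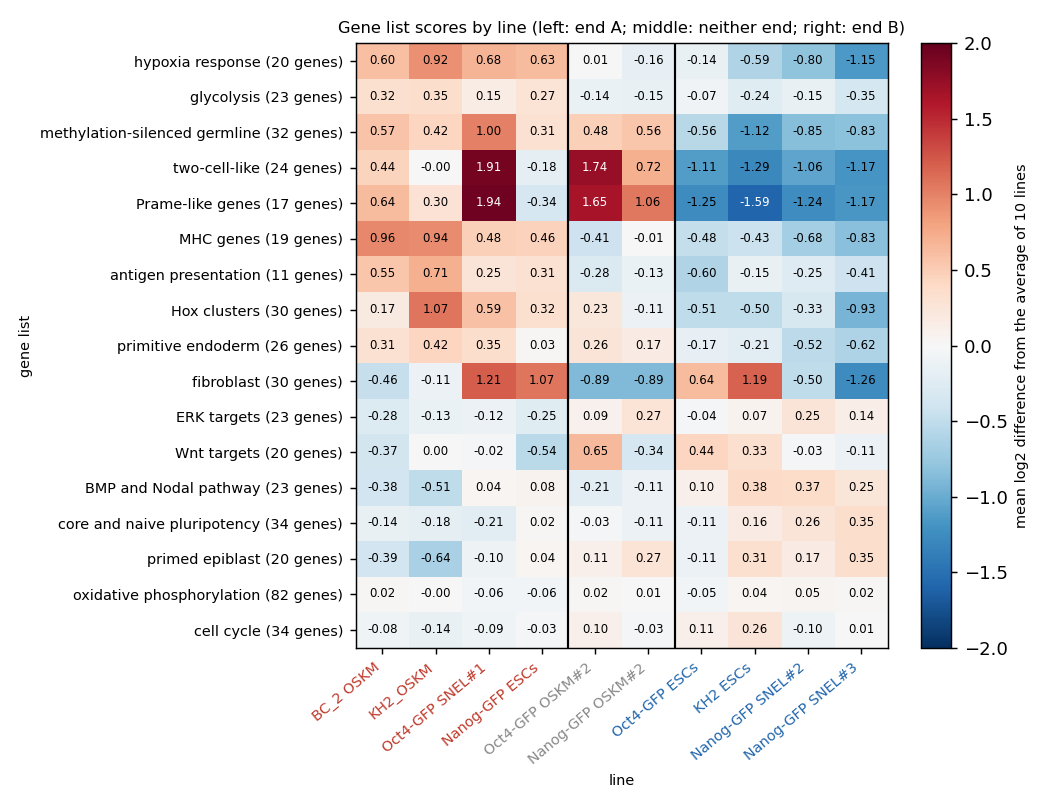
Mean log2 difference of each gene list from the average of the 10 lines (colour and printed value), with lists as rows and lines as columns ordered by their score on the first component. Hypoxia response, MHC and germline lists are positive in all 4 lines of end A and negative in all 4 of end B, whereas the fibroblast list is positive in 2 lines of each end.

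Lists that mark other cell types did not share one pattern. Scores of the fibroblast list, 30 genes, overlapped fully, at -0.11, -0.46, 1.21 and 1.07 at end A and -1.26, -0.50, 1.19 and 0.64 at end B, and the collagens Col1a1, Col1a2 and Col3a1 were not counted. The median difference of that list was -1.17 between KH2_OSKM and KH2 ESCs and 2.20 between Nanog-GFP ESCs and the SNEL lines of that name. Over all 8 lines it was 0.36, and it ran from -0.13 without Nanog-GFP SNEL#3 to 0.58 without KH2 ESCs. Of its genes 4 were counted higher, Pdgfrb (-0.42 ± 0.82 against -3.38 ± 1.34), Loxl1, Twist1 and Mmp2, and 1 lower, the intermediate filament Vim (4.01 ± 0.75 against 5.70 ± 0.15). That is 13.3% and 3.33% of the list, beside 4.46% and 1.78% of all genes. Of 26 primitive endoderm genes, 5 were counted higher and 1 lower, with scores of 0.03 to 0.42 at end A and -0.62 to -0.17 at end B. Without Nanog-GFP ESCs 8 were counted higher. Gata6 had -0.70, -1.58, -0.71 and -0.69 against -3.95, -3.44, -3.50 and -3.29, and Sox17 was higher by 1.85, but the related Sox7 was lower at end A, with -5.41, -6.96, -4.89 and -5.01 against -1.82, -3.20, -2.42 and -3.41. Of the defining markers of trophoblast, Elf5 did not pass the filter on dim probes, Gata3 was counted higher and Cdx2 was not counted (-5.79 ± 0.93 against -3.67 ± 1.60). Mixl1 did not pass the filter, T and Eomes were not counted, and neither were Sox1, Pax6 and Neurog2. The part of these cell types in the axis was not tested.

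Hox genes, which pattern the body axis and are silenced by Polycomb in pluripotent cells, had 9 of 30 measured counted higher at end A (30%). None was lower, the shares of all genes were 4.46% higher and 1.78% lower, and the list's median was 1.05. Hoxb13 had 0.26, -0.94, -0.10 and -0.37 against -5.70, -3.07, -2.07 and -2.59, and Hoxd4 had -0.64, -1.31, -1.80 and -1.24 against -5.64, -3.80, -3.23 and -4.28. Of the 30 genes, 5 were not well above background on any array of end B and passed the filter on dim probes through other arrays. Hoxd9 was above background on 8 arrays of end A and 1 of end B. Hoxd1, Hoxd4, Hoxd8, Hoxd9 and a neighbouring transcript were the 5 genes counted of 6 measured in chr2:74537676-74603059 (mm9). The list score was highest in KH2_OSKM, at 1.07, and was 0.17 to 0.59 in the other lines of end A, against -0.93 to -0.33 at end B. With normexp background correction 4 Hox genes were counted, and with probes above background on all 20 arrays 2.

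At both ends the defining markers of pluripotent cells were present. Pou5f1, Nanog, Sox2, Zfp42 and Esrrb were well above background on all 16 arrays and none of the 5 was counted. Nanog was 7.22 ± 0.15 against 6.97 ± 0.24, although its 2 probes differed in direction, Sox2 4.16 ± 0.19 against 4.05 ± 0.32 and Esrrb 7.52 ± 0.09 against 7.68 ± 0.17. Zfp42 was 5.43 ± 0.89 against 6.29 ± 0.21, lowest in Oct4-GFP SNEL#1 (4.09). Of 34 core and naive pluripotency genes, 0 were counted higher and 2 lower, Lin28a and the threonine dehydrogenase Tdh (7.70 ± 0.12 against 8.74 ± 0.15). The lower ones were 5.88% of the list, beside 1.78% of all genes. Without the demand for a difference of 1, 7 of the 34 genes were apart and lower, beside 8.75% of all genes. The list's median was -0.19, or -0.30 without Oct4-GFP ESCs. Pou5f1 divided the lines by name and not by end. It was 5.35 in Oct4-GFP SNEL#1 at end A, 5.35 in Oct4-GFP ESCs at end B and 5.55 in Oct4-GFP OSKM#2, against 6.31 to 6.70 in the other 7 lines.

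Of the 8 factors used for reprogramming, 2 were counted, both lower at end A (25%, beside 1.78% of all genes), and the other 6 differed by -0.18 to 0.25. Lin28a, an RNA-binding protein that blocks let-7 microRNAs, had 2.97, 3.15, 2.32 and 3.86 against 5.46, 5.18, 5.60 and 4.76, a 4.52-fold difference. Myc had -1.98, -4.28, -3.70 and -4.25 against -0.59, -1.12, -0.27 and -1.21, a 6.74-fold difference. Both factors were low in OSKM, SNEL and ESC lines of end A alike. KH2_OSKM had the highest Myc of end A (-1.98), while BC_2 OSKM (-4.28), the other OSKM line there, was close to Nanog-GFP ESCs (-4.25). The part of the reprogramming factors in these levels was not tested.

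Among the few targets of ERK and Wnt signalling that were counted, more were lower than higher at end A. The mean was higher there in 11 of 23 ERK targets and 9 of 20 Wnt targets. Of 23 ERK targets, 5 were counted lower (21.7%) and 1 higher (4.35%), beside 1.78% and 4.46% of all genes. Dusp6, a phosphatase that ERK induces, had 0.18, 0.73, 1.68 and 1.19 against 3.21, 3.23, 2.46 and 2.11, and Etv1 had -0.39, 0.08, 1.42 and 0.83 against 2.84, 1.88, 2.92 and 2.62. Fos, an immediate early gene, was higher at end A (0.13 ± 0.39 against -1.57 ± 0.62), and Egr1 (0.02) and Dusp4 (0.01) were among the genes not counted. The list's median was -0.06, the same as over all genes. It ran from -0.02 without Oct4-GFP SNEL#1 to -0.23 without KH2 ESCs, with further shifts without KH2_OSKM (-0.18), Nanog-GFP ESCs (-0.13) and Oct4-GFP ESCs (-0.21). Of 20 Wnt targets, 5 were counted lower (25%) and 1 higher (5%), with a median of -0.28. Sp5, a direct target of beta-catenin, had -0.50, -1.07, 0.30 and -1.22 against 1.34, 1.79, 1.72 and 2.35, and Notum was 3.18 ± 0.68 against 4.67 ± 0.25, while Rnf43 was higher by 1.304. Myc and Ccnd1 belong to both lists and are counted in each, so that the counts of the lists are not separate.

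Of 23 BMP and Nodal pathway genes, 3 were counted lower and 3 higher, 13.0% each, beside 1.78% and 4.46% of all genes. The list's median was -0.23, or -0.13 without Oct4-GFP ESCs. The lower ones were the ligand Bmp4 (0.01, -2.09, 0.74 and 0.02 against 2.74, 1.60, 2.52 and 2.36), the BMP target Id3 (-2.65, -1.78, 0.13 and -1.77 against 3.36, 3.24, 1.35 and 0.68) and the Nodal inhibitor Lefty2 (3.46 ± 1.12 against 5.60 ± 0.39). Id3 differed by 12.7-fold between the means, but Oct4-GFP SNEL#1 (0.13) and Oct4-GFP ESCs (0.68) came close. The higher ones were the ligand Bmp7 (3.94 ± 0.19 against 2.00 ± 0.42), the inhibitor Smad6 (1.14 on the log2 scale) and Skil (1.13).

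**Figure D5:**
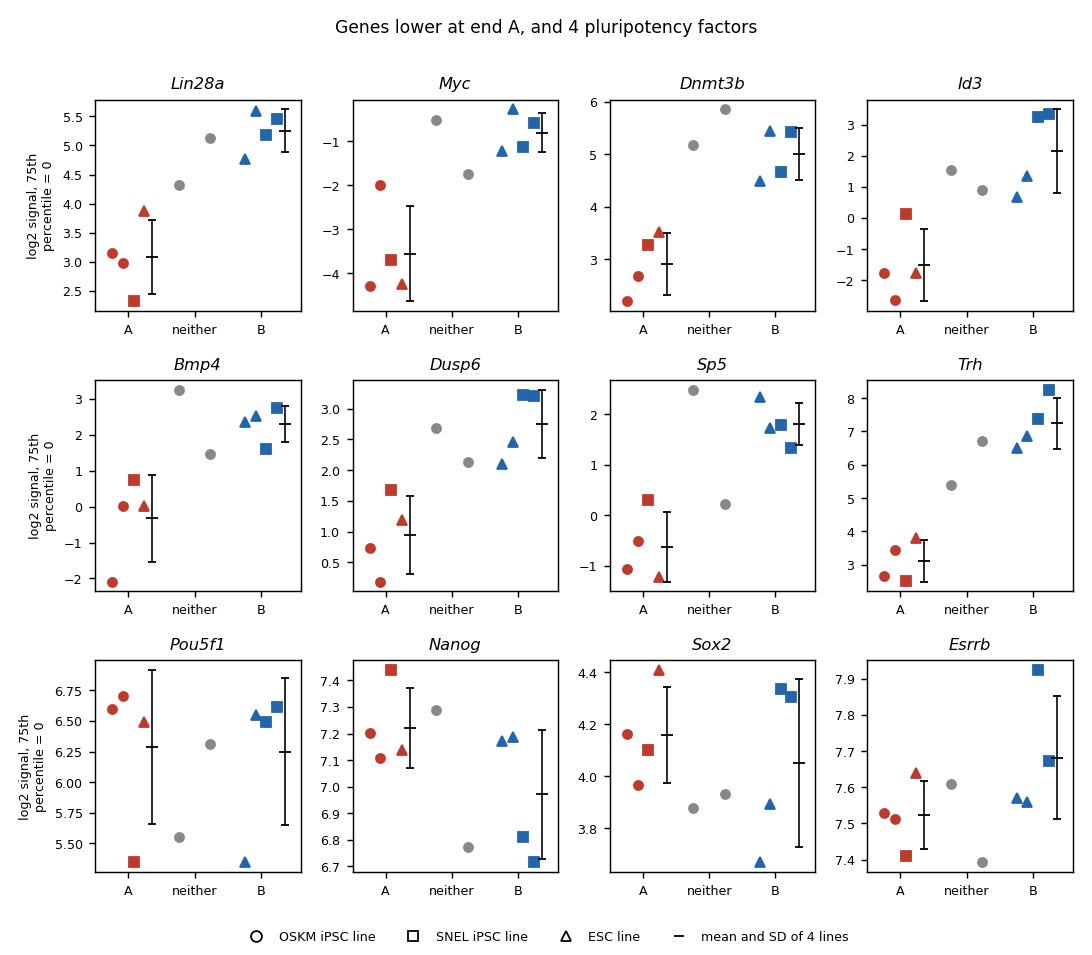
Log2 signals (vertical axes, 75th percentile of the array at 0) of 8 genes lower at end A and of 4 pluripotency factors, with the mean and SD of the 4 lines of each end. Lin28a runs from 2.32 to 3.86 at end A and from 4.76 to 5.60 at end B, whereas Pou5f1, Nanog, Sox2 and Esrrb overlap between the ends.

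Of 34 cell cycle genes, 2 were counted lower (5.88%, beside 1.78% of all genes), Ccnd1 (2.73 ± 0.54 against 3.92 ± 0.31) and Cdk6 (-4.48 ± 0.50 against -2.96 ± 0.24). Without the demand for a difference of 1, 9 of the 34 genes were apart and lower, beside 8.75% of all genes, and the median was -0.16. Ccnd1 and Cdk6 encode partners that drive cells out of G1. Of 23 neuroectoderm genes, 3 were counted lower, Gbx2, Sox11 and Tubb3 (0.01 ± 1.37 against 2.37 ± 0.48), and 1 higher, Nes (1.83 ± 0.23 against 0.72 ± 0.22). That is 13.0% and 4.35%, beside 1.78% and 4.46% of all genes.

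Imprinted and sex-linked genes split the lines in other ways. Meg3, the maternal RNA of the Dlk1-Dio3 locus, had 0.32, 5.86, 4.25 and 5.30 at end A and 6.73, 6.12, 5.10 and 4.58 at end B, and Mirg had -1.96, 2.50, 1.26 and 2.54 against 4.94, 4.19, 3.45 and 2.36. KH2_OSKM was the lowest line of end A in both and Oct4-GFP SNEL#1 also lay below end B, whereas BC_2 OSKM and Nanog-GFP ESCs overlapped with end B, and neither gene was counted. Slc38a4 was counted higher (3.73 ± 0.43 against 0.78 ± 1.39), as was Sgce. These were 2 of 31 other imprinted genes, 6.45% beside 4.46% of all genes, and the median difference of that list was -0.11. The Y-linked gene Eif2s3y had -0.97, -2.91, 3.70 and -7.89 against 0.84, 3.14, 1.59 and 1.62. Nanog-GFP ESCs was the lowest line in Eif2s3y and in Ddx3y (-8.08), Oct4-GFP SNEL#1 was the highest, and the ends overlapped.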

How the data were processed

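RNA of 10 lines was hybridised to 20 arrays in 1 colour. Scanner files of array design 028005 came from Feature Extraction 10.1.1.1, per the file headers, which give probe positions on mm9. Its processed signal, an intensity after background subtraction, was deposited by the authors and is the value used. The deposited value table holds log2 values with nearly equal columns (medians 6.27 to 6.28), their making not stated, and served as an alternative. The submitters' processing notes name limma without a version.

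Controls and flagged values were left out, and no centring was done by line. Log2 signals had the 75th percentile of the array subtracted (a signal of 513 to 914). The filter on dim probes left 38756 that were well above background on 4 or more arrays, and each of 27161 genes took its brightest probe. Of 55681 probes, 26413 matched a RefSeq accession. Names of the files were kept otherwise. Values of a line are means over its 2 arrays, and n counts lines. The number of arrays limits the precision.

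Components were computed on genes centred over lines (Python 3.11.15, numpy 2.4.6, scipy 1.17.1). Limma 3.58.1 in R 4.3.3 made the normexp alternative (offset 50). The component and the counting rule were also run on simulated data in which the 2 ends were set in advance. That run cannot show how many genes are counted when the ends are chosen on the same genes. Technical measures were tested by exact two-sided permutation over lines, adjusted by Benjamini and Hochberg's method, and the p of the 3 that touch the values behind the component is not given. Genes named are the 15 largest counted differences in each direction that carry an established symbol and were above background on all arrays of the higher end, up to 4 counted members of each of 41 lists, the 8 reprogramming factors, 4 genes at the threshold, and imprinted and sex-linked genes; other list members were chosen after their values were seen. The lines and lists were chosen with earlier results of these data known.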

Additional observations from a re-analysis of the deposited data

Results flagged for a closer look

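Within the 4 lines of each end, 344 values were checked for 1 line far from the other 3 (a gap above Dixon's critical value as a share of the group's range), and 16 met this. Chance flags about 1 in 20 groups.

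At end A, Nanog-GFP ESCs had the low value of Ldc1 (-3.35, others -1.86 to -1.58), and BC_2 OSKM those of Spink1 (-4.63, others -3.75 to -3.68) and Gata6 (-1.58, others -0.71 to -0.69). BC_2 OSKM also had the high value of the amino acid transporter Slc38a4 (4.36, others 3.46 to 3.61). Oct4-GFP SNEL#1 was high in Hand1 (-2.42, others -4.98 to -4.93), a transcription factor of trophoblast and heart that was not well above background on any array of end B. Scores of 2 lists stood out there too, that of p53 targets in BC_2 OSKM (0.307, others 0.169 to 0.184) and that of histone variants in Nanog-GFP ESCs (0.148, others -0.141 to -0.123).

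At end B, Nanog-GFP SNEL#3 was low in Stra8 (-2.11, others 1.09 to 1.51), in the homeobox gene Esx1 (-3.47, others -1.82 to -1.53) and in the VEGF receptor gene Flt1 (-4.82, others -3.48 to -3.27). Oct4-GFP ESCs was low in Gc (-0.75, others -0.04 to 0.07), and Nanog-GFP SNEL#2 in Ccnd1 (3.46, others 4.03 to 4.12). KH2 ESCs was high in the score of histone variants (0.166, others 0.018 to 0.032).

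The gene Pou5f1 stood out at both ends, low in Oct4-GFP SNEL#1 at end A (5.35, others 6.49 to 6.70) and in Oct4-GFP ESCs at end B (5.35, others 6.49 to 6.61). The latter line was also low in the score of the 8 reprogramming factors (-0.095, others 0.413 to 0.488).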

How the results depend on the processing

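The first component held 41.3% of the variance after normexp background correction, 41.2% with the deposited value table, 45.1% with probes well above background on all 20 arrays, 30.6% with genes scaled to unit variance and 27.3% over 20 arrays, and 34.2% to 38.8% with 1 line left out. In all of these the remaining lines of the ends lay beyond both other lines. With no filter on dim probes it held 28.7% and 4 of the 8 lines lay beyond them. KH2_OSKM (-0.494) then fell with Nanog-GFP SNEL#3 (-0.596), and the ends were apart on the second component (25.5%), where all 8 lines lay beyond the other lines.

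Counts of genes higher and lower at end A were 733 and 294 after normexp correction, of which 722 and 288 were counted in the main setting, and 696 higher with probes above background on all 20 arrays, where 18519 genes were tested. Within slide 1 they were 2155 and 929, and 1062 and 879 were lower within slides 2 and 3. Fewer arrays make non-overlap easier. With 1 line left out, 1208 to 1507 genes were higher and 450 to 635 lower. The replicate number as a block gave 1243 and 495. The numbers were not taken as pairing the arrays, since not every correlation of the differences between the arrays of a line was over 0.1 (lowest -0.097, median 0.159, highest 0.513 over 28 pairs of lines), although a shared effect of the number in some lines was not tested. The spike-in difference ran from -0.037 to 0.086 with 1 line left out.

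Among list medians larger than the SD of the list's scores over lines, the sign changed for ribosomal proteins (-0.07 in the main setting, 0.013 after quantile normalization and 0.027 in the deposited table), heat shock genes (-0.08, and 0.012 in the deposited table), Wnt targets (-0.28, and 0.062 with probes above background on all 20 arrays) and 2-cell-like genes (0.79, and -0.42 there). Of 2704 values of named genes under the alternatives, 123 moved by more than the SD over lines and 0 changed sign among genes counted. Where only lines, slides or arrays were left out, that 0 was fixed in advance, since the arrays of the ends do not overlap in a counted gene. With probes above background on all 20 arrays, 79 of the 125 named genes remained. Normexp correction moved 41 of 125 named genes in this way. Signal over background limits the precision of dim genes. Without the first array of KH2_OSKM, a choice made after seeing the data, 1205 genes were higher and 563 lower.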

Other observations

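Genes counted higher at end A lay together in further spans. In chr11:94616520-94722131 (mm9), 5 of 8 genes measured were counted, Tmem92 and 4 neighbouring transcripts, with a median difference of 2.78 over the span. In chrX:8471703-8657634 (mm9), 5 of 8 were counted, among them the ferritin-like genes Fthl17d, Fthl17e and Fthl17f, with a median of 2.11. In chr7:11595690-12172079 (mm9), 5 of 10 were counted, among them Zscan4c, Zscan4e and Zscan4f, with a median of 3.45. Related copies can share signal on a probe. These spans were picked after their values were seen. They and the spans of MHC and Hox genes above were sought as runs of at least 5 counted genes, each within 500 kb of the next. High counts in them therefore follow from that rule, and are no result beside the 4.46% of all genes counted higher.

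Epithelial, vascular and placental genes were also counted. Of 22 trophoblast genes 4 were counted higher (18.2%) and 0 lower at end A, beside 4.46% and 1.78% of all genes, but only 12 had the higher mean there. The median was 0.21 (0.10 without KH2_OSKM, 0.13 without Nanog-GFP SNEL#3 and 0.41 without BC_2 OSKM), and the defining gene Cdx2 differed by -2.12 without being counted. The hormone precursor Sct had 2.01, 1.81, 2.13 and 0.57 against -1.96, -1.24, -1.16 and -0.94, while the homeobox gene Esx1 was 0.22 ± 0.12 against -2.10 ± 0.92 (n = 4 lines each). Of 26 epithelial and mesenchymal genes 4 were counted higher (15.4%) and 1 lower (3.85%), with 13 of 26 means higher and a median of 0.00032. Among the higher was the tight junction gene Cldn7 (3.87 ± 0.76 against 2.36 ± 0.28). The VEGF receptor gene Flt1 had -0.74, -0.99, -0.58 and -0.76 against -4.82, -3.34, -3.48 and -3.27. Of 35 collagens 5 were counted higher (14.3%) and 1 lower (2.86%), and Col9a2, a cartilage collagen, was 6.5005-fold higher at end A.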
